A study of Mus musculus with 6 samples.

Results

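The transcripts described here encode 8 transcription factors of the basic helix-loop-helix class that bind the E-box, a short DNA motif with the palindromic core CACGTG. They are the repressors Bhlhe40 and Bhlhe41, the 4 MiT/TFE genes Mitf, Tfeb, Tfe3 and Tfec, and the general activators Usf1 and Usf2. They make up 8 of the 49585 genes counted and were chosen by function, as E-box factors tied to lysosome and lipid genes, at a time when the IRF8KO against WT differences of the same libraries were known. Values from that comparison are therefore given for the 8 genes as a description, without a test. All 8 passed the filter on low counts, Bhlhe40 and Tfec through the IRF8KO libraries, where they were high.

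The MiT/TFE proteins bind E-boxes in the promoters of lysosomal and autophagy genes, a set known as the CLEAR network, and drive lysosome production when nutrients are short. The kinase complex mTORC1, which sits on the lysosome and is fed by the Rag GTPases and the Ragulator complex, phosphorylates these proteins and keeps them in the cytosol, so an mRNA level does not report their activity. BHLHE40 and BHLHE41 recognise overlapping sites, act as repressors, take part in the circadian clock and are known in macrophages for holding down lysosomal and lipid genes. USF1 and USF2 are made in most cell types and occupy many of the same motifs.

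Microglia, which are macrophages native to the brain, were sorted and sequenced as bulk RNA from 3 WT and 3 IRF8KO male mice aged 3 months, 1 brain per library. IRF8KO denotes a knockout of the interferon regulatory factor IRF8, a transcription factor of macrophages; the labels do not say how the allele was made, whether it was removed from the germ line, or which surface markers were sorted on. Gene counts per library lay between 3658917 and 11098363. Whole-gene counts of Irf8 were 795, 851 and 1400 CPM in WT replicates 1, 2 and 3 and 743, 650 and 850 CPM in IRF8KO replicates 1, 2 and 3, so the groups overlapped; such counts do not separate an intact transcript from one without an exon, and every direction rests on the labels. Levels are given in CPM, the counts of a gene for every M of TMM-scaled counts in its library. TMM, the default scaling of edgeR, removes the effect of a few very abundant transcripts, which matters because Apoe alone took 25.5% to 33.7% of IRF8KO counts and 0.154% to 0.324% of WT counts. Microglial markers were abundant in every library, with a summed level of 45400 to 77400 CPM over 14 genes in WT and 38100 to 53600 CPM in IRF8KO. The most abundant of them was Csf1r, at 17400 to 32500 CPM in WT and 12300 to 19300 CPM in IRF8KO. Of these 14 genes, 1 was called higher in IRF8KO (Fcrls) and 6 lower: Sall1, at 0 in all IRF8KO libraries, P2ry12 (17.4-fold), Gpr34 (8.75-fold), Itgam (5.14-fold, with 68.7% of its exonic length shared with another gene), Cx3cr1 (4.47-fold) and Aif1 (3.99-fold). Over all tested genes, 9.64% were called higher in IRF8KO and 9.46% lower. Of the 12 markers of border-associated macrophages, 10 were tested and 9 were called higher in IRF8KO. Their sum was 621 to 841 CPM in WT and 3920 to 5120 CPM in IRF8KO. Pf4 was at 0.778 to 2.62 CPM in WT and 1540 to 2170 CPM in IRF8KO, and Ms4a7 at 0.637 to 1.17 CPM and 294 to 577 CPM. Mrc1, Cd163, Stab1, F13a1, Cbr2, Clec12a and Siglec1 were the others called higher. Ccr1 was not called, and Lyve1 and Cd209f were at 0 in all 6 libraries. In bulk RNA, a difference in the share of a cell type and a difference in RNA per cell cannot be told apart.

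Bhlhe40 was nearly silent in WT and clearly expressed in IRF8KO. This repressor gene (ENSMUSG00000030103) lies on the plus strand of chromosome 6, at chr6:108660629-108666925 of GRCm38. WT replicates 1, 2 and 3 gave 5, 13 and 0 counts, or 0.973, 0.920 and 0 CPM. IRF8KO replicates 1, 2 and 3 gave 303, 651 and 433 counts, or 48.6, 58.4 and 47.0 CPM. The groups did not overlap, and the lowest IRF8KO library, with an exact 95% counting interval of 42.6 to 51.6 CPM, stood far above the upper limit of 2.27 CPM in WT replicate 1. The mean went from 0.631 ± 0.547 to 51.3 ± 6.19 CPM (SD, n = 3), a fitted log2 difference of 6.27 (SE 0.61), with a range of 5.75 to 6.87 over the other analyses that tested it. All counting intervals cover counting error only, since these libraries carry no molecular identifiers.

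Bhlhe41, the paralogue of Bhlhe40, was already present in WT and differed far less. Its gene (ENSMUSG00000030256) spans chr6:145858243-145865558 on the minus strand. WT replicates 1, 2 and 3 had 24.5, 22.6 and 10.1 CPM, and IRF8KO replicates 1, 2 and 3 had 31.3, 49.4 and 34.5 CPM. The groups did not overlap, but the gap between the highest WT and the lowest IRF8KO library was smaller than the gap between WT replicates 2 and 3. Means were 19.1 ± 7.85 and 38.4 ± 9.64 CPM (SD, n = 3), a log2 difference of 1.01 (SE 0.38). The exons of Bhlhe41 share 19.0% of their length with Gm43909, a predicted gene on the other strand, and the count that ignores strand drops reads that fall on 2 genes. That count kept 76.0% of the reads seen by the strand-wise counts in WT and 64.1% in IRF8KO, and with both strand-wise counts added together the log2 difference was 1.23. Gm43909 itself had 7 counts in WT and 32 in IRF8KO in all.

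**Figure D1:**
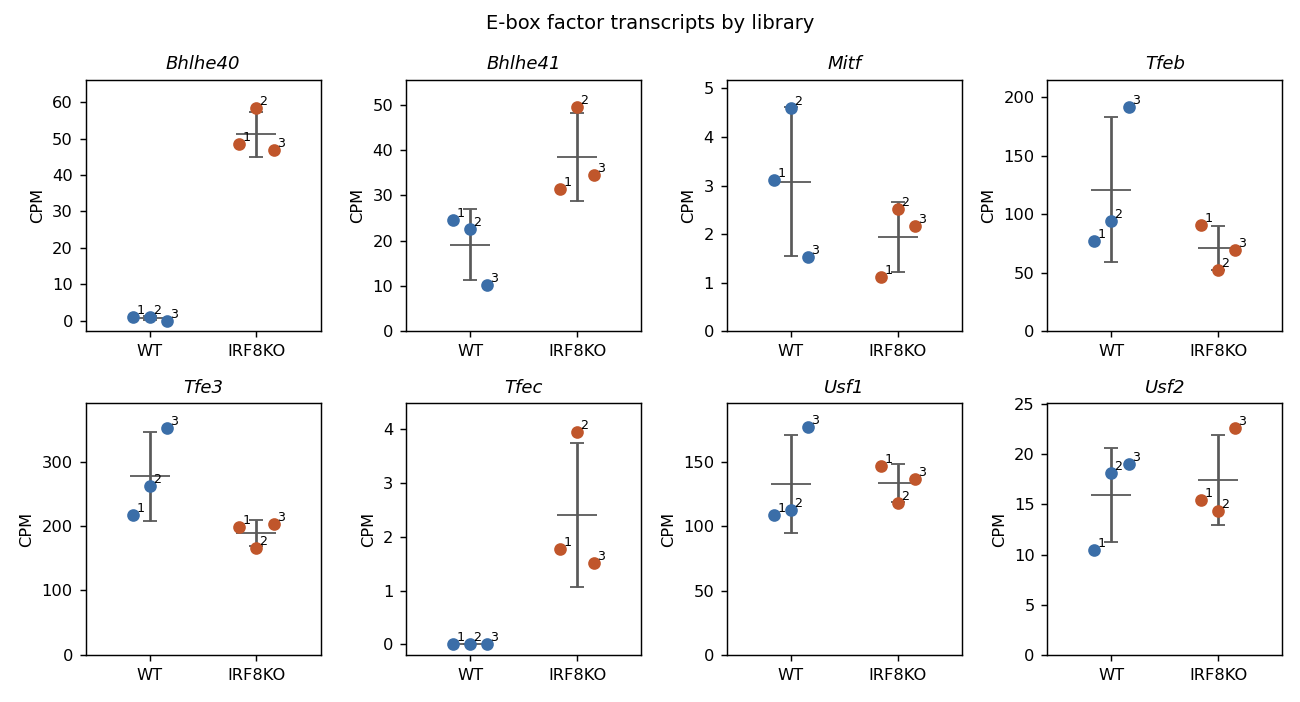
Level of each E-box factor transcript in CPM of the TMM-scaled library size (vertical axes, one scale per gene) in the 3 WT and 3 IRF8KO libraries; points are libraries with their replicate number, horizontal bars are means and error bars are SD (n = 3). Bhlhe40, Bhlhe41 and Tfec have every IRF8KO library above every WT library, Tfe3 has every IRF8KO library below, and WT replicate 3 is the highest of the 6 libraries for Tfeb, Tfe3 and Usf1 and the lowest for Bhlhe41.

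The pair changed places. Per kilobase of exon, which allows levels of different genes to be compared, Bhlhe40 made up 5.36%, 5.50% and 0% of the summed Bhlhe40 and Bhlhe41 level in WT replicates 1, 2 and 3. It made up 68.9%, 62.8% and 66% in IRF8KO replicates 1, 2 and 3. The ratio of Bhlhe40 to Bhlhe41, which does not depend on how libraries are scaled, was at most 0.0582 in WT and at least 1.69 in IRF8KO. The count used kept 100% of the strand-wise reads of Bhlhe40 in WT and 89.3% in IRF8KO. For Bhlhe41 it kept 76.0% and 64.1%, and this unequal loss raises the ratio and the Bhlhe40 share in both genotypes. The summed level of the pair was 2.97 ± 1.28 CPM per kb in WT and 16.6 ± 2.74 CPM per kb in IRF8KO (SD, n = 3).

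The promoter of Bhlhe41 is shown because it was the one promoter among the members that held the CACGTG core itself, the motif that its own product and the other 7 factors recognise. RefSeq promoter windows of GRCm38.p6, each 250 bases before to 50 after a start site, were matched for 6 of the 8 genes: Bhlhe41, Mitf, Tfeb, Tfe3, Tfec and Usf1. The stretch printed lies at chr6:145865559-145865670 on the minus strand, written along the gene's strand from 5′ to 3′, with the E-box core in capitals.
Bhlhe41: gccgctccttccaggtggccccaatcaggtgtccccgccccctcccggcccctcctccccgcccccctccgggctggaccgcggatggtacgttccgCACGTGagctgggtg
The core begins 15 bases before the annotated start in GENCODE. Searched on both strands, CACGTG occurs in 7.15% of all windows of this length, and TCACGTG, which contains it, in 3.77%. A match describes the letters and not a bound site.

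Tfec, the MiT/TFE gene known for its restriction to macrophages and related cells, was seen in IRF8KO alone, at low levels. The gene (ENSMUSG00000029553) spans chr6:16833373-16898441 on the minus strand. All 3 WT libraries had 0 counts, and IRF8KO replicates 1, 2 and 3 had 11, 44 and 14 counts, or 1.77, 3.95 and 1.52 CPM. Against a floor of 3 counts over the WT libraries, Tfec was at least 22.9-fold higher in IRF8KO, or at least 14.3-fold higher without IRF8KO replicate 2, the library with the most Tfec. The exact 95% upper limits at 0 counts were 0.718, 0.261 and 0.509 CPM in WT replicates 1, 2 and 3, so lower expression in WT was not detectable at this depth.

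The Tfec promoter window is printed because Tfec was 1 of 2 members called in the genotype comparison and the one of them with a window. It lies at chr6:16898442-16898691 on the minus strand, with AGGAAGT, a core bound by PU.1 and other ETS factors, in capitals.
Tfec: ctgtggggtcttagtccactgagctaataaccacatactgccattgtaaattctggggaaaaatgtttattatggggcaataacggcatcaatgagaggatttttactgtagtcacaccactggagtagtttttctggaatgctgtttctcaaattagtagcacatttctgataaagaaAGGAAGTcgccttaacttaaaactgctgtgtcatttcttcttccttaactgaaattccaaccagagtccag
The match begins 71 bases before the start. AGGAAGT, searched on both strands, is found in the windows of 10.7% of all genes; among the 6 members with windows it was also found for Tfe3 and Usf1, in 1 of 2 windows each. Of 2 further motifs searched in the same way, the composite of ETS and IRF occurs for 3.16% of all genes with a window and the interferon-stimulated response core for 3.99%; neither was found in a window of any of the 6 members.

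Tfe3 and Tfeb carried nearly all of the MiT/TFE transcript level in both genotypes. Tfe3 (ENSMUSG00000000134, chrX:7762560-7775202, plus strand) encodes the family member with the highest CPM. WT replicates 1, 2 and 3 had 217, 262 and 352 CPM of Tfe3, and IRF8KO replicates 1, 2 and 3 had 198, 166 and 203 CPM. The groups did not overlap, but IRF8KO replicate 3 came close to WT replicate 1. Means were 277 ± 68.8 and 189 ± 19.6 CPM (SD, n = 3), a log2 difference of −0.55 (SE 0.29).

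Tfeb (ENSMUSG00000023990, chr17:47737030-47792419, plus strand), the factor best known as the driver of lysosome production, overlapped between genotypes. WT replicates 1, 2 and 3 had 77.4, 94.0 and 192 CPM, and IRF8KO replicates 1, 2 and 3 had 90.7, 52.7 and 69.6 CPM. WT replicate 3 alone was more than double any IRF8KO library, while WT replicate 1 lay below IRF8KO replicate 1. The log2 difference was −0.77 (SE 0.37) with all libraries and −0.25 without WT replicate 3; for Tfe3 it was −0.31 without that library.

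Mitf (ENSMUSG00000035158, chr6:97807052-98021349, plus strand), the founding gene of the family and the regulator of pigment cells, osteoclasts and mast cells, was barely expressed. WT replicates 1, 2 and 3 had 3.11, 4.60 and 1.52 CPM and IRF8KO replicates 1, 2 and 3 had 1.12, 2.51 and 2.17 CPM, from 7 to 65 counts per library. The groups overlapped, and the log2 difference of −0.66 (SE 0.72) was smaller than its own error. It moved to 0.04 with an offset for GC content and length, so no direction can be given. Markers of pigment cells were near 0: Tyr, Tyrp1, Dct, Mlana, Slc45a2 and Oca2 had 0 counts in all 6 libraries, and the 10 pigment cell genes summed to 1.24 to 3.11 CPM in WT and 2.71 to 7.45 CPM in IRF8KO.

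Usf1 and Usf2 varied more between libraries than between genotypes. Usf1 (ENSMUSG00000026641, chr1:171411313-171419142, plus strand) had 109, 113 and 177 CPM in WT replicates 1, 2 and 3 and 147, 118 and 137 CPM in IRF8KO replicates 1, 2 and 3. Means were 133 ± 38.3 and 134 ± 14.8 CPM (SD, n = 3), a log2 difference of 0.01 (SE 0.29). Usf2 (ENSMUSG00000058239, chr7:30945248-30956803, minus strand) had 10.5, 18.1 and 19.0 CPM in WT and 15.4, 14.3 and 22.6 CPM in IRF8KO, a log2 difference of 0.13 (SE 0.38). Both groups overlapped for both genes, and the sign of both differences changed with the scaling, to −0.46 and −0.34 with library size alone. The count that ignores strand kept 77.9% of the strand-wise reads of Usf2, which shares 9.09% of its exonic length with Gm17077.

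Seen together, 2 of the 8 genes, Bhlhe40 and Tfec, were called in the fit over all genes, both higher in IRF8KO. Tfeb and Tfe3 were called lower as well with library size alone as the scaling (log2 −1.22 and −1.03) and with the offset for GC content and length (−0.64 and −0.69), which split the members into 2 higher and 2 lower, and 3 higher and 2 lower. Of the 11041 genes tested, 19.1% were called, 9.64% higher and 9.46% lower, at an adjusted p under 0.05 in edgeR's quasi-likelihood test (Benjamini-Hochberg over all tested genes). With library size alone as the scaling, 651 were higher and 1908 lower. With the offset for GC content and length, 1208 were higher and 1488 lower. Library values did not overlap between genotypes for 4 of the 8, with Bhlhe40, Bhlhe41 and Tfec higher and Tfe3 lower in IRF8KO; this held for 37.9% of all tested genes, 20.0% higher and 17.9% lower. The genotype comparison was known when the 8 were chosen, so nothing is read from these counts. The median log2 difference of the 8 was 0.07, beside −0.11 over all tested genes. In simulated data of this size, the same test recovered 9.84% of changes of 1 log2 unit and 63.6% of changes of 2 log2 units. These shares pool genes of all levels, so they do not give the recovery for Bhlhe41, Tfeb, Tfe3 or Mitf.

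**Figure D2:**
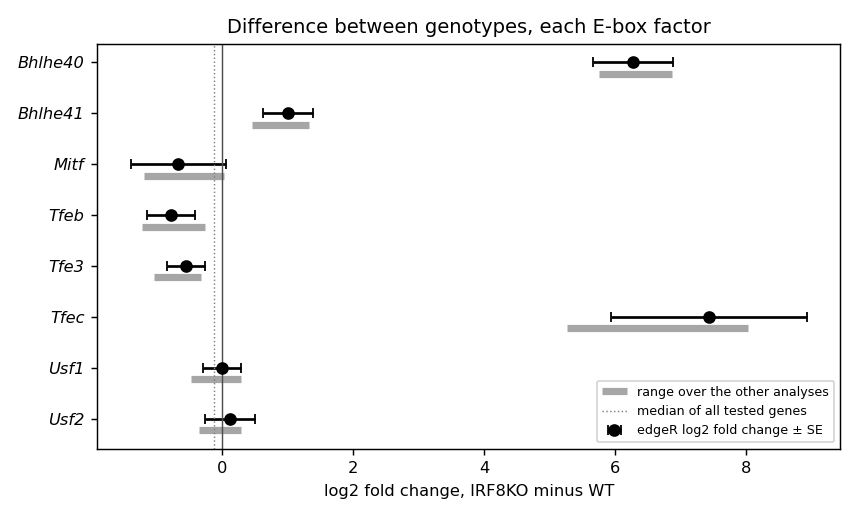
Log2 fold change of each E-box factor, IRF8KO minus WT (horizontal axis), from the edgeR fit over all 6 libraries; points are fitted values, error bars are SE, grey bars span the other analyses that tested the gene, the solid line is 0 and the dotted line the median of all tested genes, −0.11. Bhlhe40 at 6.27 and Tfec at 7.43 stand apart from the other 6, which lie between −0.77 and 1.01; the fitted Tfec value depends on the prior count because WT had 0 counts.

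Per kilobase of exon, Usf1 was the most abundant of the 8 transcripts in both genotypes, at 47.3 ± 13.7 CPM per kb in WT and 47.6 ± 5.26 CPM per kb in IRF8KO (SD, n = 3). In WT it was followed by Tfe3 (29.9 ± 7.43), Tfeb (21.4 ± 10.9), Usf2 (5.99 ± 1.77), Bhlhe41 (2.84 ± 1.17), Mitf (0.497 ± 0.249), Bhlhe40 (0.134 ± 0.116) and Tfec (0). Library values of Tfe3 and Tfeb overlapped, as did those of Bhlhe40 and Tfec at 0, and the other neighbours in this order did not overlap. In IRF8KO the order of levels was Usf1, Tfe3 (20.4 ± 2.12), Tfeb (12.5 ± 3.36), Bhlhe40 (10.9 ± 1.32), Usf2 (6.57 ± 1.69), Bhlhe41 (5.71 ± 1.43), Tfec (0.431 ± 0.239) and Mitf (0.312 ± 0.117). Here the neighbours Tfeb and Bhlhe40 overlapped, as did Usf2 and Bhlhe41, and Tfec and Mitf. In IRF8KO the count used kept 80.2% of the strand-wise reads of Usf2 and 64.1% of those of Bhlhe41, so no order is read between them. Bhlhe40 moved from the seventh place to the fourth, next to Tfeb. With the longest transcript in place of all exons as the length, Tfeb passed Tfe3, at 51.7 against 43.8 CPM per kb in WT and 30.3 against 29.8 CPM per kb in IRF8KO, so the order of these 2 genes depends on the length used.

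In the pool of 8 transcripts, the repressor share was higher and the MiT/TFE share lower in every IRF8KO library than in any WT library. Bhlhe40 and Bhlhe41 together made up 4.58%, 3.70% and 1.04% of the summed level per kilobase in WT replicates 1, 2 and 3, and 13.5%, 20.7% and 14.1% in IRF8KO replicates 1, 2 and 3. The 4 MiT/TFE transcripts made up 44.6%, 47.5% and 50.1% in WT and 34.1%, 29.7% and 32.5% in IRF8KO. Usf1 and Usf2 made up 48.8% to 53.4% in the 6 libraries, and the groups overlapped. With the longest transcript as the length, the USF share was 43.0%, 40.7% and 39.1% in WT and 44.8%, 43.8% and 46.5% in IRF8KO, where the groups did not overlap. The groups did not overlap for the repressor share or for the MiT/TFE share, also with the longest transcript as the length, and such shares do not depend on library scaling. They sum to a fixed whole, so a larger repressor share lowers the others; a ratio without that limit is Tfe3 to Usf1, which was 0.603, 0.707 and 0.602 in WT and 0.408, 0.428 and 0.449 in IRF8KO. Tfeb to Usf1 was 0.352, 0.413 and 0.536 in WT and 0.306, 0.222 and 0.252 in IRF8KO. Both ratios were lower in every IRF8KO library than in any WT library, although the CPM of Tfeb overlapped. A ratio shows unequal change and does not say which of the 2 transcripts moved.

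**Figure D3:**
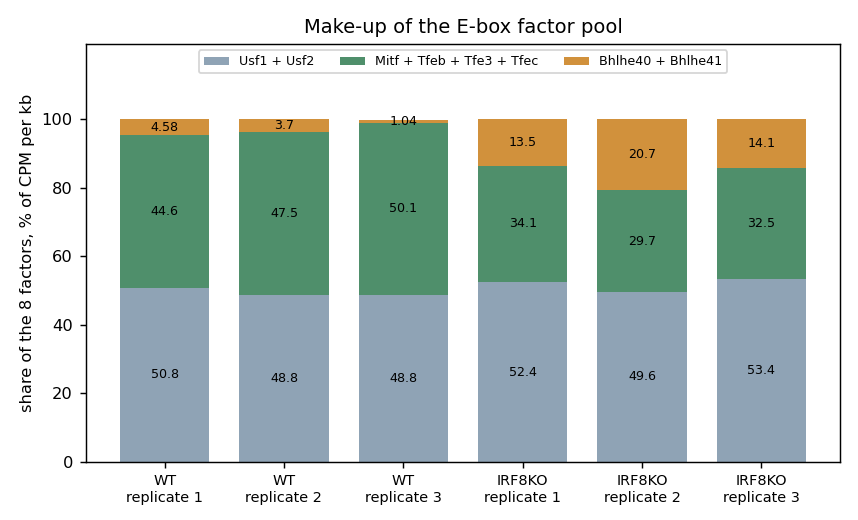
Share of the summed CPM per kilobase of the 8 E-box factor transcripts (vertical axis, percent) held by Usf1 and Usf2, by the 4 MiT/TFE genes and by Bhlhe40 and Bhlhe41, in each of the 6 libraries; bars are single libraries and carry no error. The repressor share is 1.04% to 4.58% in WT and 13.5% to 20.7% in IRF8KO, the MiT/TFE share is 44.6% to 50.1% in WT and 29.7% to 34.1% in IRF8KO.

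Among the MiT/TFE genes themselves the proportions were similar in the 2 genotypes. Tfe3 made up 59.0% ± 5.49 of their summed level per kilobase in WT and 60.9% ± 3.87 in IRF8KO (SD, n = 3), and Tfeb 39.9% ± 6.09 and 36.8% ± 4.92. Mitf held 1.10% ± 0.677 and 0.973% ± 0.477. Tfec went from 0% to 1.37% ± 0.972, at 0.834%, 2.49% and 0.780% in IRF8KO replicates 1, 2 and 3, and exceeded the Mitf share in replicates 1 and 2 (0.479% and 1.43%) but not in replicate 3 (1.01%).

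WT replicate 3 stood apart from the other WT libraries, with GC-rich members higher and GC-poor members lower, though not in order of GC content. Relative to the mean of WT replicates 1 and 2, its log2 difference was 1.16 for Tfeb, whose longest transcript has a GC content of 63.2%. It was 0.41 for Usf2 (57.7% GC), 0.68 for Usf1 (56.0%) and 0.55 for Tfe3 (52.1%). It was −1.23 for Bhlhe41 (47.5%) and −1.35 for Mitf (43.4%). The genotype difference of these genes depends on which WT libraries are compared: the IRF8KO mean of Tfeb was 0.828 of the mean of WT replicates 1 and 2 and 0.370 of WT replicate 3. For Tfe3 these ratios were 0.788 and 0.537, for Bhlhe41 1.63 and 3.81, and for Mitf 0.502 and 1.28. The IRF8KO mean of Bhlhe40 was 54.2 times that of WT replicates 1 and 2, and WT replicate 3 had 0 counts of it. With an offset for GC content and length in the fit, the log2 difference was 1.31 for Bhlhe41, −0.64 for Tfeb, −0.69 for Tfe3 and 0.04 for Mitf, against 1.01, −0.77, −0.55 and −0.66 without it. The labels name no batch, and the cause of the deviation of WT replicate 3 was not tested.

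**Figure D4:**
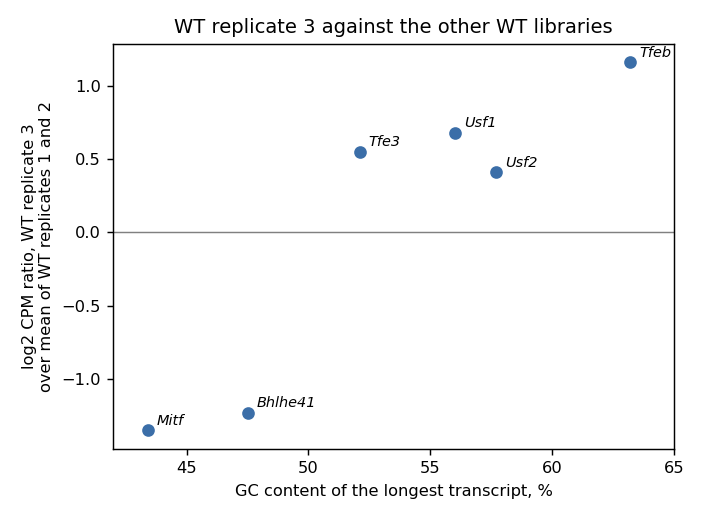
Log2 ratio of the CPM in WT replicate 3 to the mean CPM of WT replicates 1 and 2 (vertical axis) against the GC content of the longest transcript in percent (horizontal axis), 1 point per E-box factor with counts in all WT libraries (6 genes). The 4 genes at 52.1% GC or more lie above 0 and the 2 genes at 47.5% or less lie below −1.

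IRF8KO replicate 2 had the highest level of Bhlhe40, Bhlhe41 and Tfec and the lowest of Tfeb and Tfe3. The same library was the only one with more than 1 CPM of the neutrophil granule genes S100a8, S100a9, Camp, Ltf and Ngp, at 121, 57.2, 58.3, 35.3 and 79.2 CPM, and the 10 neutrophil markers summed to 871 to 1350 CPM in IRF8KO and 651 to 1000 CPM in WT, with Mmp8 at 0 throughout. Csf3r supplied 995 of the 1350 CPM in IRF8KO replicate 2 and nearly all of the sum in the other 5 libraries. Cxcr2, a neutrophil chemokine receptor on the same list, was at 0 in every WT library and at 1.61, 4.13 and 1.74 CPM in IRF8KO replicates 1, 2 and 3. It was called higher (edgeR adjusted p = 0.0071), and like Tfec it was highest in IRF8KO replicate 2. Without IRF8KO replicate 2, IRF8KO replicates 1 and 3 still had 48.6 and 47.0 CPM of Bhlhe40, 31.3 and 34.5 CPM of Bhlhe41 and 1.77 and 1.52 CPM of Tfec. Monocyte markers (10 genes, F10 among those at 0) summed to 6.75 to 27.2 CPM in WT and 10.7 to 55.1 CPM in IRF8KO, most of it Nr4a1 in WT. The highest sum was that of IRF8KO replicate 2, with 34.6 CPM of Chil3, 4.67 CPM of Plac8 and 2.78 CPM of Ly6c2, where Chil3 and Ly6c2 were at 0 in the other 5 libraries. Fn1 of that list was at 0, 0.0708 and 0.138 CPM in WT and at 4.01, 3.77 and 1.52 CPM in IRF8KO (called higher, edgeR adjusted p = 0.0066). The part of neutrophil or monocyte RNA in the levels of the members was not tested. Lymphocyte markers (12 genes, Cd3e, Cd3g, Cd8a and Ms4a1 among those at 0) summed to 519 to 859 CPM in WT, mainly Ighm, and 34.8 to 45.1 CPM in IRF8KO. Ighm alone was at 454 to 757 CPM in WT and 13.6 to 20.5 CPM in IRF8KO. Of the 12 genes, 9 were at 0 in all WT libraries and 5 in all IRF8KO libraries. Only 3 were tested, with 1 called higher and 2 called lower in IRF8KO.

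The genes whose pattern over the 6 libraries lay closest to each factor were found by the Euclidean distance of centred log2 CPM among 6168 genes whose mean reached 10 CPM. For Tfec they were Mrc1, the mannose receptor and a marker of border-associated macrophages, at a distance of 0.538, and Dab2 at 0.856, where the median gene lay at 4.44. Mrc1 had 3.70, 2.62 and 3.03 CPM in WT replicates 1, 2 and 3 and 24.6, 60.8 and 32.5 CPM in IRF8KO replicates 1, 2 and 3, so its highest library was also that of Tfec. For Bhlhe40 they were Oas2, an interferon-induced antiviral enzyme, at 1.31, and Siglec1, a sialic-acid receptor of macrophages, at 1.59, against a median of 7.99. Siglec1 had 1.38 to 2.72 CPM in WT and 112 to 125 CPM in IRF8KO. The part of border-associated macrophages in the Bhlhe40 and Tfec levels was not tested.

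Closest to Bhlhe41 were Dido1 at 0.403 and Gcnt2 at 0.442 (median 2.17), which share its low value in WT replicate 3. Tfeb was followed most closely by Scap, the escort of the SREBP sterol factors, at 0.117, and by Eefsec at 0.195 (median 1.79). Tfe3 lay close to Naa80 at 0.119 (median 1.42), and Mitf to Ggnbp2 at 0.207 and Sptssa at 0.255 (median 2.04). The neighbours of Usf1 were Pcnx3 at 0.117 and Pfkfb4 at 0.126 (median 1.20), and those of Usf2 were Gnb1l at 0.240 and Acad12 at 0.293 (median 1.34). These distances describe likeness over 6 libraries that share the genotype split and the deviation of WT replicate 3.

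Genes of the pathways around the factors were counted from 6 lists holding 158 symbols, 13 of them in more than 1 list; the lists were written with earlier results of these data known. The call of each gene comes from the same fit over all 11041 genes. Of 37 called genes in all, 17 were higher and 20 lower in IRF8KO. No list-wide test was made.

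The CLEAR list of lysosome and autophagy genes, the targets by which TFEB and TFE3 are best known, held calls in both directions. Of 48 genes 47 were tested, and 3 were called higher and 7 lower (21.3%, where 19.1% of all genes were called), with a median log2 difference of 0.10 beside −0.11 over all genes. Cd63, a tetraspanin of late endosome and lysosome membranes, rose from 357 ± 96.6 to 2230 ± 459 CPM (SD, n = 3; log2 2.64, adjusted p = 3.8e-04, edgeR). Gabarap, an autophagosome protein of the ATG8 family, rose with a log2 difference of 1.43 (edgeR adjusted p = 0.0095), and Atp6v0e, a subunit of the proton pump that acidifies lysosomes, with 1.04 (0.044). Uvrag, a partner of Beclin 1 in autophagy, fell from 41.4 ± 7.54 to 9.94 ± 3.38 CPM (log2 −2.05, edgeR adjusted p = 0.0024), although 17.6% of its exonic length overlaps another gene. Vps18, a subunit of the complexes that tether vesicles to lysosomes, fell with −1.52 (edgeR adjusted p = 0.0065), Ostm1, the partner of the lysosomal chloride transporter Clcn7, with −1.91 (0.0085), and the acid ceramidase Asah1 with −1.64 (0.012). Psap and Pip4p1 were also among the called decreases. The count of 10 became 4 without WT replicate 2 or without IRF8KO replicate 1, 2 without IRF8KO replicate 3 and 27 without WT replicate 3, and it was 20, with 9 higher, under an offset for GC content and length. The share of the list called was then 42.6% with the offset, where 24.4% of all genes were called, 34.0% with library size alone (23.2%), 56.2% without WT replicate 3 (33.5%) and 4.17% without IRF8KO replicate 3 (7.95%). In the fits without 1 library, the median of the list ranged from −0.11 without IRF8KO replicate 1 to 0.38 without WT replicate 3. With library size alone it was −0.40, beside −0.61 over all genes. Cd63 and Uvrag kept their calls in each fit without 1 library, Gabarap, Atp6v0e, Vps18, Ostm1 and Asah1 lost theirs without IRF8KO replicate 3 (log2 differences of 1.38, 0.97, −1.40, −1.73 and −1.49; edgeR adjusted p of 0.062 to 0.18), and all of these but Vps18 in further such fits. These were the fits without WT replicate 2 for Gabarap, Atp6v0e and Ostm1, without IRF8KO replicate 1 for Gabarap, Atp6v0e and Asah1 and without WT replicate 1 for Atp6v0e, with log2 differences of 0.87 to 1.34 for Gabarap and Atp6v0e, −1.67 for Ostm1 and −1.37 for Asah1. The Atp6v0e call was also lost with RLE factors (1.06) and with the second strand-wise count (0.89).

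Among 17 targets of MITF and the TFE factors in osteoclasts and macrophages, 11 were tested, and 2 were called higher and 1 lower (27.3%, where 19.1% of all genes were called). The median log2 difference was 0.13, with 0.58, −0.08 and −0.01 without WT replicates 1, 2 and 3 and 0.22, 0.33 and 0.03 without IRF8KO replicates 1, 2 and 3, so no direction is read from it. Plin2, which coats lipid droplets, rose from 77.5 ± 5.89 to 388 ± 83.9 CPM (SD, n = 3; log2 2.32, edgeR adjusted p = 2.8e-04) and kept its call in each fit without 1 library. Gpnmb, a membrane glycoprotein used as a readout of MiT/TFE activity, had 0.195, 0 and 8.0 CPM in WT replicates 1, 2 and 3 and 32.9 to 45.4 CPM in IRF8KO. It was called higher (log2 3.91, edgeR adjusted p = 0.025), a call lost without IRF8KO replicate 1 (3.86, edgeR adjusted p = 0.079), without IRF8KO replicate 3 (3.81, 0.11), with DESeq2 (3.85, 0.15) and with library size alone (3.68, 0.066), over a range of adjusted p of 3.8e-14 to 0.15 in all alternatives. Its size depended on WT replicate 3, without which the call was kept: the other WT libraries had 1 count in all and the ratio of IRF8KO to WT was 761, with an exact 95% interval of 136 to 30100. It was also larger with limma-voom (log2 7.08) and with the replicate block (5.30). Hif1a, the oxygen-sensing factor, was called lower (log2 −2.39, edgeR adjusted p = 0.048) with overlapping groups and kept the call in 7 of 18 alternatives; its log2 difference was −3.58 without IRF8KO replicate 2, where the call held, and −2.0, −2.26, −2.13 and −1.93 without WT replicate 1, WT replicate 2, IRF8KO replicate 1 and IRF8KO replicate 3, where it was lost. The count of 3 fell to 1 without IRF8KO replicate 1 or without IRF8KO replicate 3. The share of the list called was then 9.09% in each, where 9.64% and 7.95% of all genes were called.

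In the nutrient-sensing list, which holds mTORC1 and its lysosomal regulators, 26 of 28 genes were tested. Of these, 2 were called higher and 2 lower (15.4%, where 19.1% of all genes were called). The median log2 difference was −0.54, beside −0.11 over all genes. Rptor, the scaffold subunit of mTORC1, fell from 321 ± 69.0 to 99.2 ± 33.8 CPM (SD, n = 3, log2 −1.70, edgeR adjusted p = 0.0042). It kept its call in each fit without 1 library. Rragc, the RagC GTPase that docks TFEB and TFE3 at the lysosome, fell from 76.6 ± 18.5 to 27.9 ± 6.45 CPM (log2 −1.45, edgeR adjusted p = 0.0071), a call lost without IRF8KO replicate 1 (log2 −1.27, edgeR adjusted p = 0.052). The Ragulator subunits Lamtor5 and Lamtor1 rose with log2 differences of 1.11 and 1.12 (edgeR adjusted p of 0.019 and 0.045). Neither call held without WT replicate 1, WT replicate 2, IRF8KO replicate 1 or IRF8KO replicate 3 (log2 differences of 0.88 to 1.06), that of Lamtor1 was also lost without IRF8KO replicate 2 (1.26) and with RLE factors (1.13), and the Lamtor5 difference fell to 0.13 with the offset for GC content and length. The count of 4 was 2 without WT replicate 1, WT replicate 2 or IRF8KO replicate 3, 1 without IRF8KO replicate 1 and 10 without WT replicate 3. The share called was 7.69%, 8% and 38.5% without WT replicates 1, 2 and 3, where 11.4%, 10.4% and 33.5% of all genes were called. It was 3.85% and 7.69% without IRF8KO replicates 1 and 3, where 9.64% and 7.95% of all genes were called.

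Of the clock list, which includes genes that BHLHE40 and BHLHE41 are known to repress through E-boxes, 16 of 19 were tested. Of these, 2 were called higher and 5 lower (43.8%, where 19.1% of all genes were called). The median log2 difference was −0.75 (−1.27 without IRF8KO replicate 2). The kinases Csnk1e and Csnk1d, which phosphorylate the PER proteins, fell from 148 ± 18.3 to 44.6 ± 1.64 CPM and from 197 ± 21.8 to 63.9 ± 1.54 CPM (SD, n = 3; log2 −1.73 and −1.63, edgeR adjusted p of 9.2e-04 and 0.0013). Hlf, an output factor of the clock, had 96 counts in WT and 3 in IRF8KO in all; the WT to IRF8KO ratio of the scaled counts was 32.1, with an exact 95% interval of 10.7 to 158 (edgeR adjusted p = 0.0086; the fitted log2 difference moved from −4.78 to −5.61 without IRF8KO replicate 3). Nr1d1, the nuclear receptor REV-ERB alpha, fell from 69.0 ± 25.7 to 26.9 ± 3.32 CPM (log2 −1.36, edgeR adjusted p = 0.012), and Cry1 was the fifth decrease. Nfil3, a repressor of clock output genes, rose from 10.9 ± 4.63 to 35.6 ± 8.95 CPM and Per1 from 43.1 ± 2.81 to 84.6 ± 10.5 CPM (log2 1.71 and 0.97, edgeR adjusted p of 0.0095 and 0.023). The Nr1d1 call was lost without IRF8KO replicate 3 (−1.33), the Nfil3 call without IRF8KO replicate 1 (1.51), with library size alone (1.10) and with the offset for GC content and length (1.03), and the Per1 call with library size alone (0.45) and without WT replicate 1, WT replicate 2, IRF8KO replicate 1 or IRF8KO replicate 3 (0.89 to 0.99). The count of 7 was 4 without IRF8KO replicate 1 and 4 without IRF8KO replicate 3. The share of the list called was then 23.5% in each, where 9.64% and 7.95% of all genes were called. The labels give no time of day at which tissue was taken, so its part was not tested.

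Lipid handling genes were called most often of the 6 lists in the higher direction. Of 29 genes 25 were tested, and 9 were called higher and 2 lower (44.0%, where 19.1% of all genes were called). The median log2 difference was 0.72 (0.20 with library size alone). The apolipoprotein genes Apoc1 and Apoe had log2 differences of 10.87 and 7.41 (edgeR adjusted p of 1.1e-06 and 6.4e-05), the latter 8.03 without WT replicate 3 and the former 9.73 with the offset for GC content and length. The cholesterol hydroxylase Ch25h had 3 counts in WT and 936 in IRF8KO in all, an IRF8KO to WT ratio of 311 after scaling, with an exact 95% interval of 106 to 1510 (edgeR adjusted p = 2.7e-05); all 3 WT counts were in WT replicate 2, and 11.5% of its exonic length overlaps another gene. Pltp, a phospholipid transfer protein, rose from 8.12 ± 4.62 to 168 ± 53.3 CPM (SD, n = 3; log2 4.4, edgeR adjusted p = 1.3e-04), with 19.3% of its exonic length shared with Ctsa; its log2 difference was 1.72 to 1.78 with either strand-wise count or their sum, where the call held. Abcg1, Plin2, Nr1h3, Srebf2 and Gpnmb were the other called increases. Mylip, a ligase that removes the LDL receptor, and Cyp27a1, a sterol hydroxylase, fell with log2 differences of −1.43 and −1.27 (edgeR adjusted p of 0.0062 and 0.0072). The count of 11 was 7 without IRF8KO replicate 3 and 18 without WT replicate 3. The share of the list called was then 29.2% and 72.0%, where 7.95% and 33.5% of all genes were called. Border-associated macrophage markers rose in the same libraries, as given above, and their part in the lipid genes was not tested.

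The list of other E-box factors and of the inhibitors that pair with them had 23 of 30 genes tested. Of these, 2 were called higher and 4 lower (26.1%, where 19.1% of all genes were called), with a median log2 difference of −0.43. That median was −0.11 to −0.03 in each fit without 1 library, −0.08 with Apoe left out of library sizes and 0.08 with the first strand-wise count, so no direction is read from it. Mycl and Myc, activators that bind CACGTG as partners of MAX, both fell. Mycl had 61.5, 59.1 and 84.6 CPM in WT replicates 1, 2 and 3 and 0, 0.538 and 1.41 CPM in IRF8KO replicates 1, 2 and 3 (log2 −6.59, edgeR adjusted p = 3.5e-05), and −7.63 without IRF8KO replicate 3. Myc went from 44.8 ± 16.6 to 7.34 ± 2.15 CPM (SD, n = 3; log2 −2.60, edgeR adjusted p = 9.1e-04). Both kept their calls in each fit without 1 library. Mxd4, which competes with MYC for MAX and represses, rose from 42.6 ± 18.4 to 112 ± 10.2 CPM, and Srebf2, the sterol-responsive factor, from 36.5 ± 6.94 to 77.5 ± 6.97 CPM (log2 1.39 and 1.09, edgeR adjusted p of 0.012 and 0.017). Tcf12 was called lower together with Hif1a (log2 −2.17, edgeR adjusted p = 0.049), a call kept without WT replicate 3 but in no other fit without 1 library (log2 differences of −1.82 to −2.28). It was also lost with the replicate block (−1.96, edgeR adjusted p = 0.088), with block and GC offset (−1.82), with RLE factors (−2.11), with Apoe left out of library sizes (−2.08) and with limma-voom (−1.91), over a range of adjusted p of 0.0065 to 0.21 in all alternatives. The calls of Mxd4 and Srebf2 were lost without WT replicate 1, WT replicate 2, IRF8KO replicate 1 or IRF8KO replicate 3 (1.17 to 1.38 and 0.94 to 1.11), and that of Srebf2 also with library size alone (0.59). The count of 6 was 3 without WT replicate 1, 2 without WT replicate 2, IRF8KO replicate 1 or IRF8KO replicate 3, and 10 without WT replicate 3. The share called was 12%, 7.69% and 38.5% without WT replicates 1, 2 and 3, where 11.4%, 10.4% and 33.5% of all genes were called. It was 8.33% and 8% without IRF8KO replicates 1 and 3, where 9.64% and 7.95% of all genes were called.

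**Figure D5:**
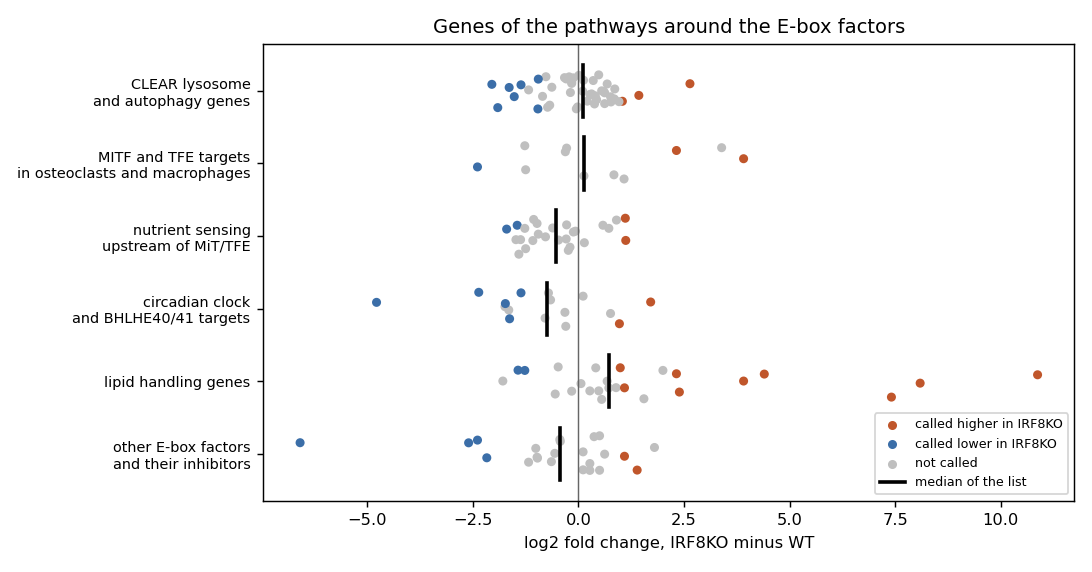
Log2 fold change, IRF8KO minus WT (horizontal axis), of every tested gene in the 6 pathway lists; each point is a gene, coloured by its call in the edgeR fit over all genes, and the thick black line is the median of the list. The median of the lipid list is 0.72 and that of the clock list −0.75, and the CLEAR list has a median of 0.10 with 3 called higher and 7 called lower.

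Called pathway genes with the E-box core in a promoter window lay in both directions. CACGTG was in at least 1 window for 8.09% of all genes with a window and for 12.2% of the 8556 tested genes with one. Several of the lists were assembled as targets of E-box factors, and their shares include genes that were not tested, so nothing is read from a list's share. That share was 41.7% in the CLEAR list (15 of 36 genes), 31.2% in the MITF and TFE target list (5 of 16), 26.9% in the nutrient list, 25% in the clock list, 27.3% in the list of other E-box factors and 10% in the lipid list (2 of 20). Over all tested genes, CACGTG was present for 8.98% of those called higher and 13.5% of those called lower in IRF8KO. Of the 37 called pathway genes, 31 had a window and 9 held the core, 5 of 15 called higher and 4 of 16 called lower.

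The 9 genes with a core are shown with 10 bases on either side of the core, to let the flanks be compared; positions are those of the core in GRCm38.p6, the sequence runs along the strand of the gene from 5′ to 3′, and CACGTG is in capitals. Genes called higher in IRF8KO come first: Plin2 (chr4:86670058-86670063), Atp6v0e (chr17:26676399-26676404), Lamtor1 (chr7:101905769-101905774), Per1 (chr11:69098783-69098788) and Mxd4 (chr5:34187924-34187929).
Plin2: gctgggctatCACGTGgctcggaggc
Atp6v0e: gcgcgccgatCACGTGagcctctgtt
Lamtor1: gccttcctatCACGTGccgcgggtcc
Per1: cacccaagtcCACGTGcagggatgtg
Mxd4: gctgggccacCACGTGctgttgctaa
Genes called lower follow: Pip4p1, with 2 cores (chr14:50931050-50931055 and chr14:50930898-50930903), Hif1a (chr12:73907732-73907737), Rragc (chr4:123917321-123917326) and Cry1 (chr10:85185109-85185114).
Pip4p1, first core: aacttcgagtCACGTGcagtgtttac
Pip4p1, second core: gccagcctgtCACGTGagcggggcgg
Hif1a: cacagacaagCACGTGagcggggcag
Rragc: tgattccgggCACGTGatagtaccac
Cry1: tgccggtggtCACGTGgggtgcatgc
Genes with an E-box core in the promoter window thus lay on both sides of the genotype comparison, with Plin2 rising 5.0-fold and Rragc falling 2.74-fold.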

How the data were processed

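RNA from sorted microglia was read in 3 WT and 3 IRF8KO libraries. Per the labels' protocols, cells went into TRIzol and their RNA into SMART-Seq v4 cDNA and Nextera XT libraries, a chemistry without strand information or molecular identifiers. The submitters' processing notes name bcl2fastq, STAR 2.5.2b, Picard 2.17.11, Subread, featureCounts and the genome mm10, with no role or order; the annotation release is not given in the sources used here. The deposited values are raw counts per gene in the STAR layout, with 4 summary lines that were left out of library sizes. The count that ignores strand (column 2) was used.

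Symbols, positions, lengths and GC content came from GENCODE M21 of GRCm38, which matched 49326 of 49585 identifiers; promoter windows came from RefSeq GRCm38.p6. Counts were fitted with edgeR 4.0.16 in R 4.3.3: default expression filter (minimum count 10), TMM scaling, quasi-likelihood test with genotype as the single term, Benjamini-Hochberg adjustment over the 11041 genes tested. A gene was called at an adjusted p under 0.05. Log2 CPM for distances had a prior count of 2. Intervals are exact (Clopper-Pearson), and a fold against a group at 0 uses a floor of 3 counts over the group. The replicates are separate brains of 1 sex and age.

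The 8 members, the gene lists and the tests were chosen with earlier results of these data known. Genes named from a list are the called genes with the 4 smallest p-values in each direction; other called genes of a list were named after their values were seen. Each member's 2 nearest genes, Irf8 and the most abundant marker of each marker list were also named by rule; a few genes that the rules or lists hold are not reported here. The test was checked on simulated counts of 10576 genes, where it recovered 9.84%, 63.6% and 95.3% of changes of 1, 2 and 4 log2 units and called 3 of 10385 unchanged genes. Alternatives were DESeq2 1.42.0, limma-voom (limma 3.58.1), other scalings, filters and count columns, a replicate block, an offset for GC content and length, leaving out each library, and, chosen after seeing the data, the sum of both strand-wise counts.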

Additional observations from a re-analysis of the deposited data

How the results depend on the processing

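The members were chosen with the genotype differences known, so their calls are given as a description. Of 19 alternatives, Bhlhe41 was called higher in 7, Tfe3 lower in 3 and Tfeb lower in 2. The number of members called was 4 with library size alone (2 higher, 2 lower), 0 with at least 10 counts in every library (which leaves Bhlhe40, Tfec and Mitf untested), 5 with the GC and length offset (3 higher, 2 lower) and 4 with that offset and the replicate block (3 higher, 1 lower). The share of all genes called was 23.2%, 23.7%, 24.4% and 20.7% in these settings. With library size alone, the log2 difference was −1.03 for Tfe3, −0.46 for Usf1 and −0.34 for Usf2. The median over all genes was then −0.61, and 25.4% of the 2559 calls were higher, against 1064 of 2109. The medians of the 8 members, the CLEAR list and the MITF and TFE target list became −0.40, −0.40 and −0.44. Those of the nutrient, clock, lipid and other E-box lists became −1.14, −1.25, 0.20 and −0.91. The clock list then had 0 genes called higher and 8 lower. The log2 difference of Mitf was 0.04 with the GC offset and 0.03 with the block and the offset. The fitted value of Tfec was 6.77 with DESeq2, 5.27 with limma-voom and 8.03 with block and offset. List counts were 16, 20 and 20 for CLEAR genes with library size alone, the GC offset, and block and offset; 7 for nutrient sensing and 7 for lipid genes with library size alone; and, with at least 10 counts in every library, 1 for MITF and TFE targets, 7 for lipid genes and 3 for other E-box factors. With the longest transcript as the length, levels in CPM per kb were 16.5 for Bhlhe40 in IRF8KO, 51.7 and 30.3 for Tfeb in WT and IRF8KO, 43.8 and 29.8 for Tfe3, 61.3 and 61.7 for Usf1 and 0.712 for Tfec in IRF8KO. The cause of these shifts was not tested, apart from the genes left untested.

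Leaving out 1 library at a time gave 910 calls over all genes without IRF8KO replicate 3 to 4003 without WT replicate 3 (1308 and 1171 without WT replicates 1 and 2, 1147 without IRF8KO replicate 1), 2 members in each fit, and 2 to 27, 1 to 4, 1 to 10, 4 to 8, 7 to 18 and 2 to 10 calls for the CLEAR, MITF and TFE target, nutrient, clock, lipid and other E-box lists. The log2 difference then ranged from 6.80 to 7.70 for Tfec, 5.80 to 6.87 for Bhlhe40, 0.76 to 1.21 for Bhlhe41, −1.02 to −0.25 for Tfeb and −0.71 to −0.31 for Tfe3. Other settings kept the all-gene count between 1863 and 2696.

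The replicate numbers share no stated animal, litter or day. Deviations of same-numbered samples correlated at −0.26, 0.33 and 0.11, and not every sample correlated best with its own number. With the replicate block, 2353 genes and 3 members were called. Depth limits Mitf and Tfec, which rest on 0 to 65 counts per library.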
